A study of Homo sapiens with 60 samples.

Results

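Longan Arillus, the fleshy aril of the longan fruit, and Zizyphi Semen, jujube seed, were compared as ethanol extracts at their highest dose in A549 cells, a line derived from a human lung carcinoma. The comparison rested on 6 of the 60 libraries of the series: the 3 labelled Longan Arillus at 500 µg/mL and the 3 labelled Zizyphi Semen at 500 µg/mL, all from library set 10. A set is read here from the first part of the library name, and the labels do not say what it stands for. All titles carry the same batch label. The series profiled herbal extracts for 24 h by directional RNA sequencing in 25 groups, of which the 6 Longan and Zizyphi groups (500, 100 and 20 µg/mL each) make up set 10 and the DMSO vehicle (3 libraries, set C1) belongs to another set. The labels put the vehicle at 0.1% DMSO, while the series' design text names another concentration, and no vehicle library of set 10 was used here. Replicates carry numbers 1 to 3, but nothing in the labels says that they were separate cultures, and the p-values below therefore reflect only library-to-library spread, possibly technical.

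Several of the genes below belong to well-known circuits. AXIN2 and RNF43 are feedback inhibitors that WNT signalling itself switches on, and DKK1 is a secreted WNT antagonist. TGF-beta signalling drives genes of the extracellular matrix, and NRF2, which is active in A549 cells because they carry a mutant KEAP1, drives glutathione synthesis and NADPH supply.

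The 6 libraries held between 21853914 and 27911615 counts, within the range of 18002661 to 33831747 over the series. KRT8, an epithelial keratin, lay between 3030 and 3280 counts per 1e6 counts (CPM) in all 6. AKR1B10 and ALDH1A1, enzymes abundant in A549, were at least 2090 and 5490 CPM. Other epithelial genes of the same marker list were far lower, EPCAM at 4.59 to 5.9 CPM and CDH1 at 30.6 to 37.2 CPM. The lung lineage genes NKX2-1 and SFTPC stayed below 0.1 CPM. One library stands apart: after centring on the mean of all libraries, Longan high replicate 1 had a mean correlation of -0.261 with the other groups of its own set and of 0.407 with set 9, while the other 5 high-dose libraries had 0.377 to 0.493 with set 10. The nearest neighbour of that library was Longan medium replicate 1 (r = 0.645). Results are therefore given with and without it. Longan low replicate 3, which differs from the other libraries of set 10 in its relation between transcript length and level, was kept out of the fit; its nearest neighbour was 1 library of set 8 with a like relation (r = 0.794).

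**Figure D1:**
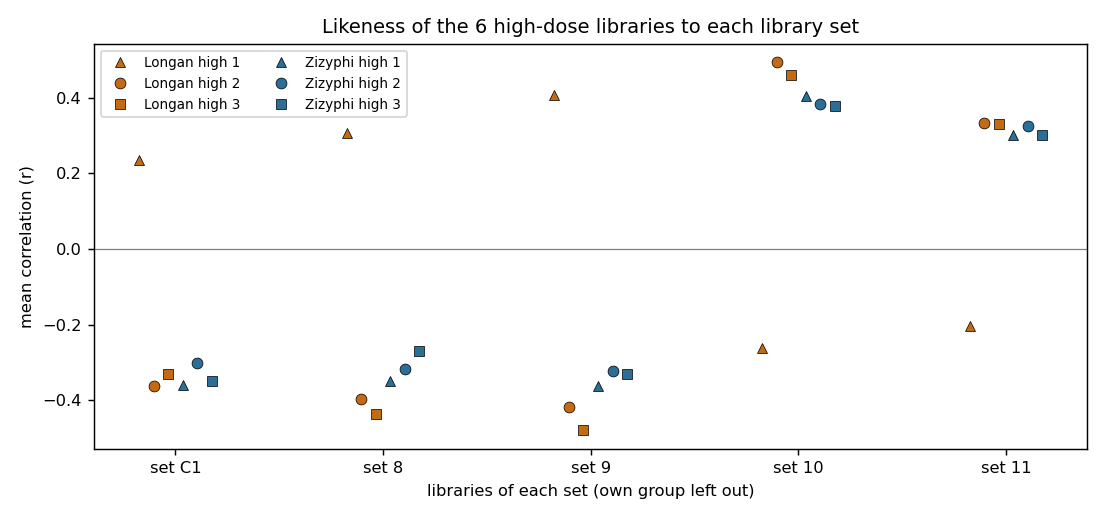
Mean correlation (r, y axis) of each high-dose library with the libraries of each set (x axis, own group left out), after centring each gene on its mean over all libraries. The orange triangle for Longan high replicate 1 lies at -0.261 for set 10 and above 0 for sets C1, 8 and 9, where the other 5 libraries are negative.

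At 500 µg/mL few genes passed the adjusted test between the extracts, and most of those that passed differed by small amounts. Of 17188 genes tested, 86 (0.5%) differed at an adjusted p below 0.05 (edgeR quasi-likelihood test, Benjamini-Hochberg over all genes), 37 higher and 49 lower in Longan. The median fold of these 86 genes was 1.21, and 81 differed by less than 1.5-fold. At an unadjusted p below 0.05 (edgeR) there were 1601 genes. The 86 need not be all the genes that differ, since in simulated counts the fit missed most of the smallest changes. In all 86 genes the 3 Longan and 3 Zizyphi libraries did not overlap, against 14.7% of all genes tested. The calls use the same libraries, so this describes the called genes and is no separate support. The 2 genes past 2-fold, ZNF625-ZNF20 and AC103691.1, averaged under 2 CPM. ZNF625-ZNF20 is a readthrough gene that shares its reads with its neighbours, so its value is uncertain. Without Longan high replicate 1, 81 of 17255 genes (0.469%) were called, 30 higher (0.174%) and 51 lower (0.296%), and 59 genes were called both ways, 27 higher and 32 lower in Longan.

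The count depended on which libraries entered the fit. It fell to 45 without Zizyphi high replicate 2, to 48 without Zizyphi high replicate 3 and to 54 without Longan high replicate 3, and rose to 147 without the replicate 1 libraries of all 3 Longan doses. With the 6 libraries alone it was 27, and with Longan low replicate 3 added back to the fit it was 1, the gene PDK4 (adjusted p = 0.0207, edgeR). Of the 42 genes named here, 23 lost their call with the 6 libraries alone (adjusted p = 0.0519 to 0.289, edgeR), and those that kept it were PDK4, EIF5B, CPLX2, ALDH3A1, DKK1, PTGS2, NR4A1, PPIG, MMD and ANKRD12 among the genes higher in Longan and TNS1, CDH4, H19, KRT19, KRT4, FA2H, JUNB, CALR and SEMA4B among those lower. Genes called lower in Longan were rich in G and C (median transcript GC content 58.8%, n = 49), genes called higher were poorer (46.4%, n = 37), and the median of all tested genes with a value was 50.5%. The level of a gene relative to its mean fell by 0.0588 on the log2 scale for each 10 points of GC content in Longan high replicate 1, and moved by 0.0122 to 0.0267 upwards in the other 5. With GC content taken out per library, an alternative added after seeing the data, 68 genes were called, 33 higher and 35 lower. Of the named genes, 8 lost their call in that fit: SERINC2, TGFB1I1, NFKB2, MT2A, SERPINH1, GCLC, ME1 and ID2 (adjusted p = 0.0733 to 0.127, edgeR).

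PDK4, a kinase that shuts off pyruvate dehydrogenase (chr7:95583499-95596491, minus strand), had 35.1, 32.9 and 31.9 CPM in the Longan libraries and 20.4, 22.1 and 20.3 CPM in the Zizyphi libraries. The lowest Longan library was well above the highest Zizyphi library, and the ratio of the means was 1.59 (log2 fold change 0.67 ± 0.07 SE, adjusted p = 1.01e-05, edgeR; 0.63 without Longan high replicate 1, adjusted p = 6.43e-05). The vehicle libraries averaged 32.6 ± 1.99 CPM (SD, n = 3), at the Longan level. Along the Zizyphi doses PDK4 averaged 34.7 ± 2.7, 29.5 ± 2.47 and 20.9 ± 1.01 CPM (SD, n = 3 each), and it fell by 0.73 on the log2 scale from the low to the high dose (adjusted p = 2.26e-06, edgeR). Along the Longan doses it averaged 33.9, 35.4 and 33.3 CPM, and high minus low was -0.03 (adjusted p = 0.935).

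**Figure D2:**
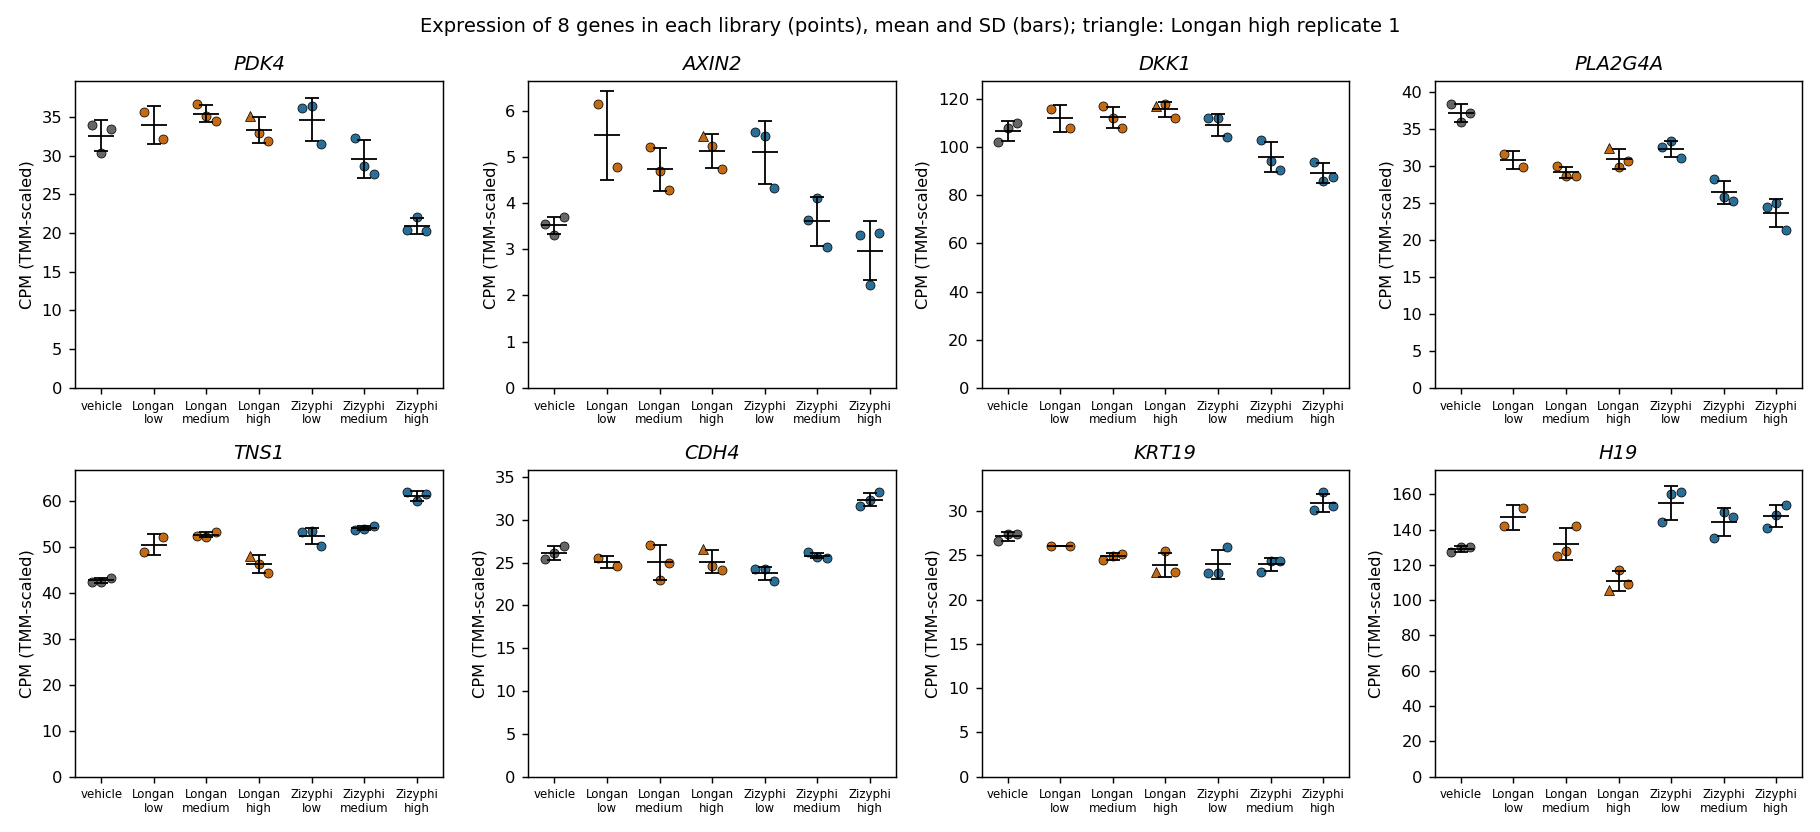
Expression (CPM, y axis from 0) of 8 genes in the vehicle group and at 3 doses of each extract (x axis); points are libraries, bars the mean and SD. In PDK4, AXIN2, DKK1 and PLA2G4A the 3 Zizyphi high libraries lie below the 3 Longan high libraries, and in TNS1, CDH4, KRT19 and H19 above them.

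In the WNT group AXIN2, RNF43 and DKK1 were called, all with Zizyphi high as the low group. Of 9 WNT target genes tested, 3 were higher in Longan (0.215% of all genes were) and none lower, in 4 all Longan libraries lay above all Zizyphi libraries (6.98% of all genes), and the list's median log2 difference was 0.07 against 0.005 over all genes. AXIN2 (chr17:65528563-65561647) had 5.45, 5.23 and 4.73 CPM with Longan and 3.31, 2.23 and 3.36 CPM with Zizyphi. These groups did not overlap, with a log2 fold change of 0.80 ± 0.155 SE (adjusted p = 0.0137, edgeR). AXIN2 in the vehicle libraries was 3.52 ± 0.186 CPM (SD, n = 3), nearer to Zizyphi high than to Longan high, and both low-dose groups stood at the Longan level, 5.47 CPM with Longan and 5.10 ± 0.679 CPM with Zizyphi. RNF43, a ubiquitin ligase that removes WNT receptors, had 6.96, 6.03 and 5.47 CPM with Longan against 3.53, 3.50 and 4.50 CPM with Zizyphi (log2 fold change 0.67 ± 0.138 SE, adjusted p = 0.0206, edgeR). DKK1, far more abundant in reads, had 117, 118 and 112 CPM with Longan and 93.8, 86.0 and 87.5 CPM with Zizyphi (0.38 ± 0.0497 SE, adjusted p = 0.000258).

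AXIN2 and RNF43, at 2.23 to 6.96 CPM in the high-dose libraries, each lost the call when any 1 of several libraries was left out. AXIN2 was not called without Longan high replicate 2 (adjusted p = 0.0522, edgeR) or Zizyphi high replicate 2 (0.145), and RNF43 was not called without Longan high replicate 1 (0.0883) or replicate 2 (0.0548), or without Zizyphi high replicate 1 (0.109) or replicate 2 (0.165). DKK1 was called in all 6 fits that left out 1 high-dose library. Among the members not called, CCND1, the cyclin that drives entry into S phase, averaged 384 and 367 CPM (log2 difference 0.07, adjusted p = 0.518, edgeR), and ZNRF3, the paralogue of RNF43, 21.5 and 18.2 CPM (0.23, adjusted p = 0.392). From the low to the high Zizyphi dose, 3 of the 9 genes fell (0.471% of all genes did): AXIN2 by 0.78, RNF43 by 0.70 and DKK1 by 0.30 on the log2 scale (adjusted p = 0.0138, 0.0132 and 0.00302, edgeR). None of the 9 was called along the Longan doses, where 4 genes in all (0.0233%) were called. With 2 low-dose Longan libraries, this does not show that the 9 stayed level.

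PTGS2 and PLA2G4A, of the genes of prostaglandin synthesis and response, were also lower with Zizyphi. Of 11 such genes tested, 2 were higher in Longan and none lower (0.215% and 0.285% of all genes), and in 5 the Longan libraries lay wholly above and in 1 wholly below (6.98% and 7.69% of all genes). PTGS2, the inducible cyclooxygenase (chr1:186671791-186680427, minus strand), had 29.8, 27.6 and 25.2 CPM with Longan and 20.5, 17.8 and 16.8 CPM with Zizyphi, without overlap (log2 fold change 0.58 ± 0.105 SE, adjusted p = 0.0113, edgeR). PLA2G4A, the cytosolic phospholipase that releases arachidonic acid, had 32.4, 29.8 and 30.7 against 24.5, 25.0 and 21.4 CPM, again without overlap (0.39 ± 0.0587 SE, adjusted p = 0.00115). The vehicle averaged 29 ± 1.91 CPM for PTGS2 and 37.2 ± 1.21 CPM for PLA2G4A (SD, n = 3), so that for PLA2G4A both extracts lay below it. Both genes fell along the Zizyphi doses, PTGS2 by 0.66 and PLA2G4A by 0.45 on the log2 scale (adjusted p = 0.00328 and 0.00024, edgeR). The prostaglandin E synthase gene PTGES went the other way, rising by 0.30 from the low to the high Zizyphi dose (adjusted p = 0.0158, edgeR), and at the high dose its Longan libraries lay below those of Zizyphi (20.3 and 22.3 CPM, adjusted p = 0.493). PTGES2 was not called at the high dose (adjusted p = 0.882). PTGS2 was not called without Longan high replicate 1 (adjusted p = 0.0579, edgeR), Zizyphi high replicate 2 (0.0824) or replicate 3 (0.085).

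Of 29 NRF2 targets tested, 4 were higher in Longan and none lower (0.215% and 0.285% of all genes), in 13 the Longan libraries lay wholly above and in 2 wholly below the Zizyphi libraries (6.98% and 7.69% of all genes), and the median log2 difference was 0.096 against 0.005. ALDH3A1, an aldehyde dehydrogenase (chr17:19737984-19748943), had 797, 881 and 848 CPM with Longan and 690, 662 and 663 CPM with Zizyphi, without overlap (log2 fold change 0.33 ± 0.0372 SE, adjusted p = 3.27e-05, edgeR). It is also a target of the dioxin receptor AHR, and no other of the 7 AHR targets tested was called. CYP1A1, the AHR target best known, was at 1.35 CPM in both groups. The catalytic subunit of glutamate-cysteine ligase, GCLC, which makes the first step of glutathione synthesis, had 292, 286 and 292 against 262, 261 and 263 CPM (0.15 ± 0.026 SE, adjusted p = 0.00565). Its modifier subunit GCLM had 254, 234 and 230 against 216, 206 and 211 CPM (0.18 ± 0.0405 SE, adjusted p = 0.0428), and the NADP-dependent malic enzyme ME1 153, 151 and 154 against 138, 130 and 136 CPM (0.18 ± 0.0321 SE, adjusted p = 0.00565). None of these 4 genes had libraries of the extracts that overlapped.

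The vehicle libraries averaged 269 ± 2.85 CPM for GCLC, 218 ± 11.0 CPM for GCLM and 145 ± 2.69 CPM for ME1 (SD, n = 3), between the extracts in each case. Other members of the list with high levels were not called: TXNRD1 (1680 and 1500 CPM, adjusted p = 0.268, edgeR), NQO1 (1350 and 1250 CPM, adjusted p = 0.079) and SLC7A11 (376 and 324 CPM, adjusted p = 0.868). GCLM lost its call without any one of 5 of the 6 high-dose libraries, with adjusted p up to 0.222 (without Zizyphi high replicate 2), and ME1 without Zizyphi high replicate 2 (0.0737). With GC content taken out per library, GCLC (adjusted p = 0.0738) and ME1 (0.127) were not called either. ALDH3A1 was called in all 6 left-out fits and with GC content taken out.

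NRF2 binds antioxidant response elements with the core TGACNNNGC, which was searched on both strands in RefSeq promoter windows of 300 bases (250 before and 50 from the start site on, build GRCh38.p14) because the called members moved together. The core occurs in 13.3% of 35116 windows, and in 8 of the 34 named genes that have a window. Of these 8, CALR, CDH4, KRT4, MT2A and TNS1 were lower in Longan, and CLDN2, GCLM and ME1 were higher. Only GCLM and ME1 belong to the NRF2 list, so the 8 do not mark the genes higher in Longan. The called member ALDH3A1 had no window and was not searched. The windows of GCLM and ME1 are shown 5′ to 3′ with every match in capitals.

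GCLM (chr1:93909381-93909680, minus strand): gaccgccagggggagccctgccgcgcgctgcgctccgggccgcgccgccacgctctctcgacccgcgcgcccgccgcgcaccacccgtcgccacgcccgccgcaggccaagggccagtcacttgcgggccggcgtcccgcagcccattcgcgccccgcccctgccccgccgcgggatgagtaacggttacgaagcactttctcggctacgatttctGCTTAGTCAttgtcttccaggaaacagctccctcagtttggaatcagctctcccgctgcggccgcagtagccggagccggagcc

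ME1 (chr6:83431002-83431301, minus strand): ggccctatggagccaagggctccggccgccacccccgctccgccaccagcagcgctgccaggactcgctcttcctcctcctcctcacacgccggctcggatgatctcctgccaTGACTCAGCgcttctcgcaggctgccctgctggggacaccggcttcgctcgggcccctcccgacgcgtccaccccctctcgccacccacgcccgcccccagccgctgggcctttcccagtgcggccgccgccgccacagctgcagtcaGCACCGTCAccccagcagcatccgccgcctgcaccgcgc

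The match in GCLM begins 34 bases before the start site, and those in ME1 begin 137 bases before it and at base 12 after it. The window of GCLC (chr6:53545052-53545351, minus strand) holds no match, which says only that these letters are not in this window. A match is a description of the sequence and not a site of binding.

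Genes lower with Longan than with Zizyphi included members of a list of TGF-beta and epithelial-mesenchymal genes. Of 21 TGF-beta and epithelial-mesenchymal genes tested, 5 were lower in Longan and none higher (0.285% of all genes were lower), in 11 the Longan libraries lay wholly below (7.69% of all genes), and the median log2 difference was -0.094. Those described here are LTBP2, COL4A1 and SNAI1.

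LTBP2, a matrix protein of the latent TGF-beta binding protein family, had 26.7, 26.3 and 26.7 against 31.8, 31.9 and 33.0 CPM (-0.28 ± 0.0469 SE, adjusted p = 0.00339, edgeR). COL4A1, a basement membrane collagen, had 61.7, 58.6 and 58.2 against 71.4, 72.0 and 69.6 CPM (-0.26 ± 0.0417 SE, adjusted p = 0.00249). SNAI1, a repressor of E-cadherin, had 24.2, 28.1 and 28.6 against 33.3, 35.5 and 35.8 CPM (-0.37 ± 0.0748 SE, adjusted p = 0.0204). None of these 3 overlapped, and LTBP2 and COL4A1 were called in all 6 left-out fits but not with the 6 high-dose libraries alone (adjusted p = 0.0754 and 0.0596, edgeR), whereas SNAI1 was not called without Longan high replicate 1 (0.0883) or Zizyphi high replicate 2 or 3 (0.129 each). Among the members not called, the fibronectin gene FN1 averaged 1070 CPM in both groups (log2 difference -0.00, adjusted p = 0.993, edgeR) and the transcription factor ZEB1 31.5 and 30.5 CPM (0.04, adjusted p = 0.937). From the low to the high dose, LTBP2, COL4A1 and SNAI1 were not called with Zizyphi (adjusted p = 0.365, 0.0903 and 0.552, edgeR). With Longan they were not called either (0.305, 0.757 and 0.413). Of the 21 list genes, 3 were called higher along the Zizyphi doses (0.308% of all genes) and none lower. The vehicle averaged 26.7 CPM for LTBP2, 65.8 CPM for COL4A1 and 24.8 CPM for SNAI1.

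Outside that list, TNS1 and CDH4 were lower in Longan. TNS1, the focal adhesion protein tensin 1 (chr2:217799588-218033982), had 48.1, 46.4 and 44.3 CPM with Longan and 61.9, 60.0 and 61.6 CPM with Zizyphi (log2 fold change -0.40 ± 0.0398 SE, adjusted p = 8.68e-06, edgeR). CDH4, a classical cadherin, had 26.6, 24.6 and 24.1 against 31.6, 32.3 and 33.2 CPM (-0.37 ± 0.0554 SE, adjusted p = 0.00115). In both genes the highest Longan library was below the lowest Zizyphi library, and both kept the call in the 6 left-out fits. Along the Zizyphi doses TNS1 averaged 52.4 ± 1.8, 54.1 ± 0.455 and 61.2 ± 1.06 CPM (SD, n = 3 each), against 42.7 ± 0.509 CPM in the vehicle. TGFB1I1, another focal adhesion protein (27.6 ± 1.58 and 33.6 ± 0.806 CPM, SD, n = 3 each), was called (adjusted p = 0.0202, edgeR) but lost the call without Longan high replicate 2 or 3 or Zizyphi high replicate 2 or 3 (0.0752 to 0.139). SERPINH1, the collagen chaperone, averaged 87.8 ± 0.824 and 99.8 ± 2.96 CPM (SD, n = 3 each; adjusted p = 0.0127, edgeR), and lost the call without Longan high replicate 3 (0.0783) or Zizyphi high replicate 2 (0.135).

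Of 10 keratin genes tested, 2 were lower in Longan and none higher (0.285% and 0.215% of all genes), and in 3 the Longan libraries lay wholly below and in none wholly above (7.69% and 6.98% of all genes). KRT19 had 23.1, 25.5 and 23.1 against 30.1, 32.1 and 30.6 CPM (-0.38 ± 0.0537 SE, adjusted p = 0.000668, edgeR), and KRT4 35.6, 35.9 and 34.4 against 47.6, 44.6 and 43.0 CPM (-0.35 ± 0.0461 SE, adjusted p = 0.000258). The libraries of the extracts did not overlap in either gene, and both were called in all 6 left-out fits. The vehicle averaged 27.1 ± 0.465 CPM for KRT19 and 41.1 ± 0.740 CPM for KRT4 (SD, n = 3), between the extracts. The abundant keratins were not called, KRT8 at 3140 and 3200 CPM (adjusted p = 0.843) and KRT18 at 2680 and 2710 CPM (adjusted p = 0.915).

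H19, an imprinted long non-coding RNA (chr11:1995176-2001470, minus strand), was one of the genes that changed along the Longan doses. At the high dose it had 106, 117 and 109 CPM with Longan and 141, 148 and 154 CPM with Zizyphi, without overlap (-0.41 ± 0.0541 SE, adjusted p = 0.000272, edgeR). Along the Longan doses it averaged 147, 132 ± 9.00 and 111 ± 5.51 CPM and fell by 0.41 on the log2 scale from low to high (adjusted p = 0.00571, edgeR), while the Zizyphi groups averaged 155, 144 and 148 CPM (high minus low -0.07, adjusted p = 0.766). The vehicle lay between the extracts at 129 ± 1.87 CPM (SD, n = 3). The Longan low group has 2 libraries, the call along the Longan doses was lost without replicate 2 of that group and with its replicate 3 included, and the difference between the dose effects of the extracts (-0.34 ± 0.0804 SE) did not pass its test (adjusted p = 0.172, edgeR).

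NR4A1, an orphan nuclear receptor and immediate early gene, fell along the doses of both extracts. It had 31.3, 31.2 and 31.0 CPM with Longan high and 25.7, 24.8 and 24.5 CPM with Zizyphi high (0.32 ± 0.0488 SE, adjusted p = 0.00136, edgeR), against 41.3 and 38.9 CPM at the low doses. From low to high it fell by 0.41 on the log2 scale with Longan (adjusted p = 0.00148, edgeR) and by 0.64 with Zizyphi (adjusted p = 1.24e-07). The difference between those changes was 0.23 ± 0.0708 SE and did not pass the test (adjusted p = 0.374). JUNB, a partner of FOS in the AP-1 factor, went the other way, with 59.0, 62.3 and 61.9 against 75.8, 78.0 and 80.6 CPM (-0.36 ± 0.0514 SE, adjusted p = 0.000716). The Longan call of NR4A1 was lost without Longan low replicate 2 and with Longan low replicate 3 included, in both of which no gene was called along the Longan doses. NR4A1 and JUNB were the called genes among 18 immediate early genes tested (0.215% of all genes were called higher and 0.285% lower), and JUN itself averaged 25.2 and 31.0 CPM (adjusted p = 0.225).

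The other named genes higher in Longan had roles of several kinds. EIF5B, the factor that joins the ribosomal subunits, had 300, 308 and 307 against 231, 233 and 233 CPM (0.39 ± 0.0395 SE, adjusted p = 8.68e-06, edgeR). CPLX2, a complexin that regulates vesicle fusion, had 874, 878 and 873 against 707, 740 and 732 CPM (0.27 ± 0.029 SE, adjusted p = 1.6e-05). In both the gap between the extracts was wider than the spread within either.

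For EIF5B the vehicle stood at 277 ± 6.88 CPM (SD, n = 3), between the extracts, and for CPLX2 at 897 ± 5.44 CPM, at the Longan side. ANKRD12, an ankyrin repeat protein, averaged 39.2 ± 1.07 and 28.3 ± 1.85 CPM, and SUSD2, a sushi domain protein of the cell surface, 36.9 ± 2.91 and 27.6 ± 1.72 CPM (SD, n = 3 each). CLDN2, a claudin that forms cation pores in tight junctions, averaged 31.5 ± 1.5 and 24.9 ± 1.48 CPM and was the called gene among 13 tight junction genes tested (0.215% of all genes were called higher). PPIG, a nuclear cyclophilin (96.3 and 78.2 CPM), MMD (44.6 and 36.2 CPM), ID2, an inhibitor of basic helix-loop-helix factors (122 and 106 CPM), and MGAT5B, a glycosyltransferase (27.5 and 22.5 CPM), were also higher in Longan. ID2 lost its call without Longan high replicate 3 (adjusted p = 0.0539, edgeR) or Zizyphi high replicate 3 (0.0879), and MGAT5B without Zizyphi high replicate 1 (0.0672), replicate 3 (0.132) or Longan high replicate 3 (0.0755).

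The other named genes lower in Longan included FA2H, the fatty acid 2-hydroxylase, with 20.5, 20.9 and 20.4 against 25.9, 27.0 and 28.6 CPM (-0.40 ± 0.0601 SE, adjusted p = 0.00115, edgeR). CALR, the endoplasmic reticulum chaperone calreticulin, had 490, 497 and 475 against 555, 570 and 567 CPM (-0.21 ± 0.0287 SE, adjusted p = 0.000364) and was the called gene among 20 genes of the unfolded protein response (0.285% of all genes were called lower). C3, the central complement protein, had 36.7, 38.9 and 35.8 against 42.9, 46.5 and 45.0 CPM (-0.27 ± 0.0468 SE, adjusted p = 0.00385). None of the 3 overlapped.

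KLF7, a Krüppel-like factor, averaged 50.3 ± 3.08 and 61.5 ± 1.65 CPM, and SEMA4B, a semaphorin, 80.6 ± 2.7 and 98.3 ± 1.85 CPM (SD, n = 3 each). CHRDL2, a chordin-like BMP antagonist, had 8.05, 7.75 and 7.33 against 9.97, 11.3 and 11.2 CPM (-0.49 ± 0.0926 SE, adjusted p = 0.00919, edgeR). CHRDL2 was not called without Zizyphi high replicate 2 (0.0792) or 3 (0.0661) or Longan high replicate 3 (0.078), YIPF2 (14.2 and 18.1 CPM) without Zizyphi high replicate 3 (0.0627), and ANGPTL4, a lipoprotein lipase inhibitor and the called gene among 20 hypoxia targets (23.1 and 27.8 CPM; 0.285% of all genes were called lower), without Longan high replicate 1 (0.0502) or 3 (0.0566). SERINC2 (11.3 and 14.2 CPM), the NF-kB subunit NFKB2 (47.8 and 56.4 CPM) and the metallothionein MT2A (42.2 and 49.1 CPM) were each called in 1 of the 6 left-out fits, with adjusted p up to 0.159, 0.222 and 0.29 (edgeR; without Zizyphi high replicate 3, Longan high replicate 3 and Zizyphi high replicate 2).

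**Figure D3:**
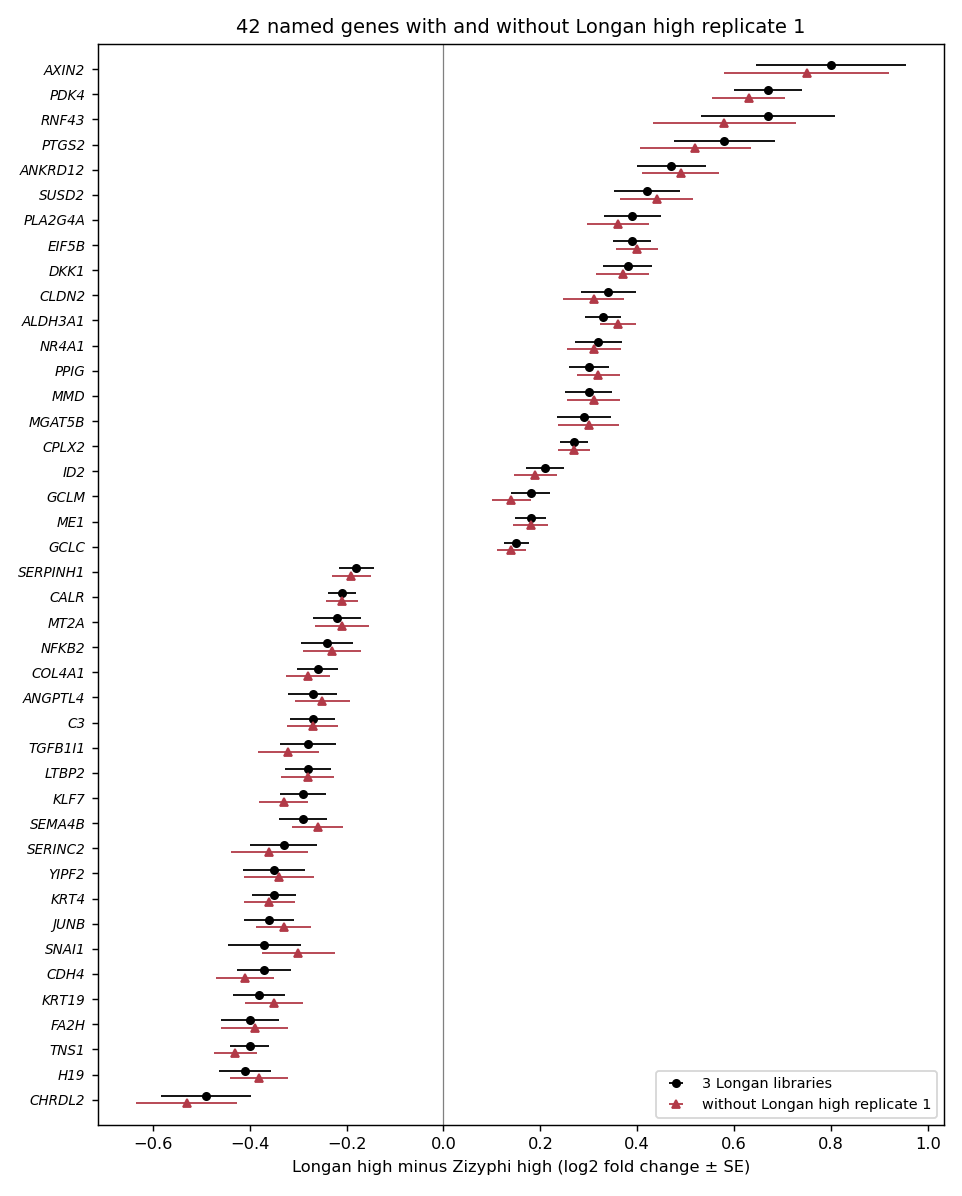
Log2 fold change of Longan high minus Zizyphi high (x axis, with SE) for the 42 named genes (y axis), with all 3 Longan libraries (circles) and without Longan high replicate 1 (triangles). No gene changed side, but for the genes named by size of change this was a condition of their choice. The 2 fits also share libraries. The estimates of AXIN2 were 0.80 and 0.75.

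The genes of cholesterol synthesis and uptake had no called member among 25, although in 12 the Longan libraries lay wholly below and in none wholly above (7.69% and 6.98% of all genes), with a median log2 difference of -0.076. Squalene epoxidase SQLE, for example, averaged 120 and 131 CPM (adjusted p = 0.116, edgeR). The 30 nuclear subunits of oxidative phosphorylation had 8 genes with Longan wholly above and none wholly below, with a median of 0.064 and no call.

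The 13 mRNAs encoded by mitochondrial DNA were all lower in Longan in value, with a median log2 difference of -0.281, but none was called. Their share of all counts was 10.818, 11.969 and 11.322% in the Longan libraries and 13.455, 13.467 and 12.444% in the Zizyphi libraries, without overlap. MT-CYB, the cytochrome b of complex III, averaged 6710 ± 304 and 8150 ± 437 CPM (SD, n = 3 each; adjusted p = 0.251, edgeR). The part of this share in the other differences was not tested.

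**Figure D4:**
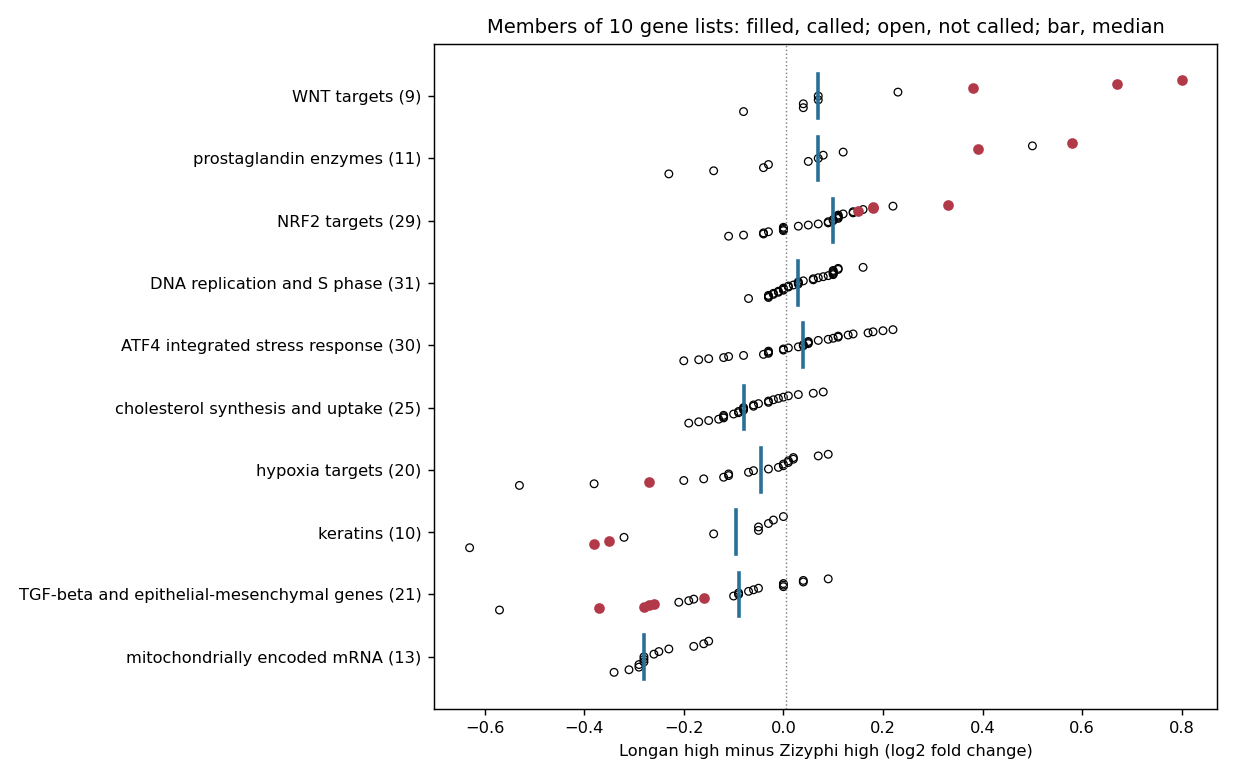
Log2 fold change of Longan high minus Zizyphi high (x axis) for the tested members of 10 gene lists (y axis, number tested in brackets); filled points were called, open points were not, bars are medians and the dotted line is the median of all genes. The 13 mitochondrially encoded mRNAs lie around -0.281, and the called WNT targets, at 0.38, 0.67 and 0.80, lie on the right.

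Markers of other cell types were summed in each library. Of 8 leukocyte markers, PTPRC and CD3E had 0 counts in all 6 libraries, and the sum of the list was 16.34, 18.60 and 15.73 CPM with Longan and 22.04, 21.57 and 21.44 CPM with Zizyphi, most of it from CD68. CD68, a lysosomal protein that was chosen for mention after its values were seen, had 11.4, 14.1 and 10.8 against 18.7, 17 and 17.1 CPM (log2 fold change -0.54 ± 0.12 SE, adjusted p = 0.0493, edgeR; 0.15 without Longan high replicate 1). The part of these markers in the other differences was not tested. Of 8 endothelial markers, KDR and EMCN were at 0 in all 6 libraries, and no endothelial marker reached 1 CPM. Of 8 fibroblast markers COL1A2 was at 0 in all 6 libraries, while COL1A1 lay at 29.3 to 34.2 CPM and THY1 at 6.93 to 8.11 CPM. Of 8 neural markers STMN2 was at 0 in all 6, while TUBB3 lay at 139 to 149 CPM and SNAP25 at 43.4 to 53.3 CPM. HNF4A, at 79.9 to 89.4 CPM, made up most of the hepatocyte list, whose ALB was at 0 in 5 libraries.

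At the low dose of 20 µg/mL no gene was called between the same pair of extracts (0 of 17188, 0.0%, edgeR; 620 genes at an unadjusted p below 0.05; 0 by DESeq2), with 2 Longan and 3 Zizyphi libraries. PDK4 differed there by -0.03 ± 0.0741 SE, AXIN2 by 0.11 ± 0.158 SE, TNS1 by -0.05 ± 0.0443 SE and CDH4 by 0.08 ± 0.0627 SE on the log2 scale. None of these passed the test, which does not show that the extracts act alike at that dose.

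The dose comparisons share the high-dose libraries with the main comparison, so their values are given side by side and not as separate support. Between the low and the high dose, 134 genes (0.78%) were called with Zizyphi, 53 up (0.308%) and 81 down. With Longan 4 (0.0233%) were called, all down. At an unadjusted p below 0.05 (edgeR) the numbers were close, 1694 genes with Zizyphi and 1597 with Longan. The Longan low group had 2 libraries and the Zizyphi low group 3, and the Longan high group included its replicate 1. The 2 called counts therefore do not measure how strongly each extract acted. Leaving out any 1 library of the Zizyphi groups brought the 134 down to between 61 (without high replicate 2) and 70 (without low replicate 2), and the 4 of Longan became 0 without Longan low replicate 2 and 1 without Longan high replicate 3. CDH4 rose by 0.45 on the log2 scale with Zizyphi (adjusted p = 0.00013, edgeR) and stood at -0.00 with Longan (adjusted p = 0.998). TNS1 rose by 0.22 with Zizyphi (adjusted p = 0.00487, edgeR) and stood at -0.13 with Longan (adjusted p = 0.345). EIF5B fell by 0.46 with Zizyphi (adjusted p = 5.23e-07) and stood at -0.17 with Longan (adjusted p = 0.185).

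The test of the difference between the dose effects called 18 genes (0.105%), 7 with a positive (0.0407%) and 11 with a negative (0.064%) Longan change minus Zizyphi change. It called PDK4 (0.70 ± 0.102 SE, adjusted p = 0.00457, edgeR), TNS1 (-0.35 ± 0.0595 SE, adjusted p = 0.0139) and CDH4 (-0.45 ± 0.0836 SE, adjusted p = 0.0279), and not AXIN2 (0.69 ± 0.222 SE, adjusted p = 0.402). The 18 became 0 without Longan low replicate 2, 5 without Zizyphi low replicate 2, 9 without replicate 1 of either low-dose group, and 10 without replicate 3 of either high-dose group.

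**Figure D5:**
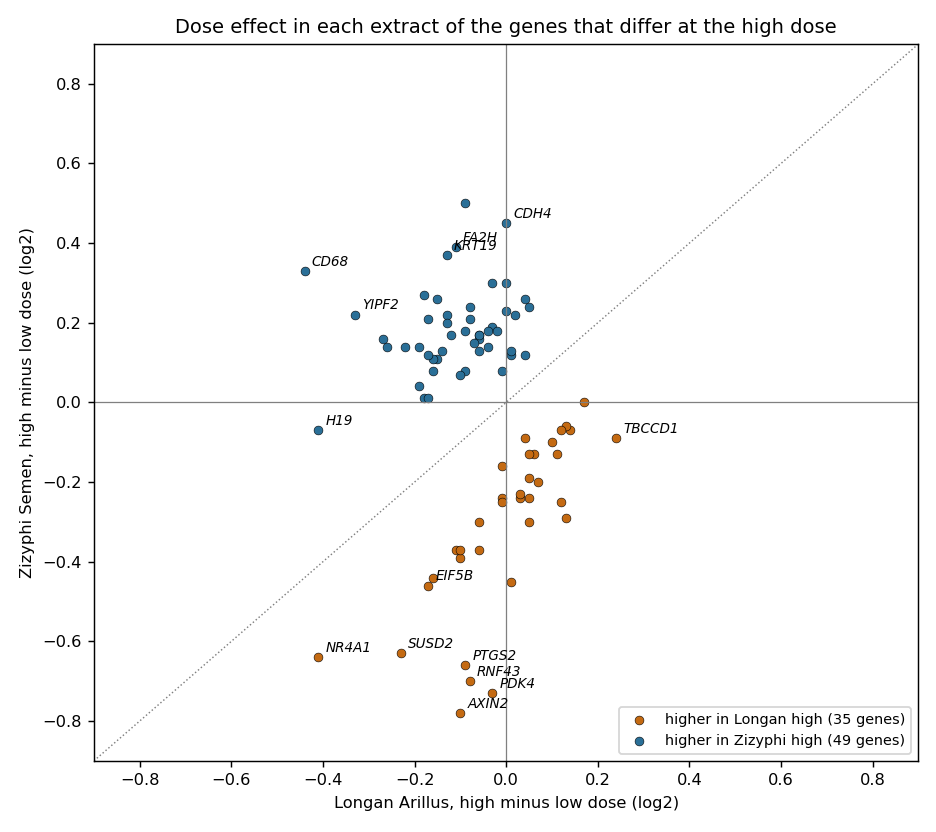
Change from the low to the high dose (log2) with Longan (x axis) and with Zizyphi (y axis) for the genes called at the high dose that average 2 CPM or more; both axes share libraries with the choice of genes. PDK4, at -0.03 and -0.73, and CDH4, at -0.00 and 0.45, lie close to the vertical zero line, and H19, at -0.41 and -0.07, close to the horizontal one.

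The vehicle and the low-dose Zizyphi libraries enter the high-dose comparison only through the shared spread and scaling. The vehicle mean was closer to Longan high than to Zizyphi high in 73 of the 86 (84.9%), and the low-dose Zizyphi mean in 66 (76.7%). Over all 17188 genes these shares were 59.2% and 50.3%, and without Longan high replicate 1, which lies nearer to the vehicle's set, 48.6% and 49.0% over all genes and again 84.9% and 76.7% over the 86. The vehicle belongs to set C1, so set and treatment cannot be told apart in any distance from it.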

How the data were processed

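The deposited values are expected counts per gene that the authors made with Trim Galore 0.6.5, STAR 2.7.3a and RSEM 1.3.3 on hg38 (GRCh38), per the submitters' processing notes; no source used here gives the annotation release or the strand setting. The expected counts were rounded (10.485% of values were not whole), and gene names and positions came from GENCODE 29. edgeR 4.0.16 in R 4.3.3 fitted 20 libraries by group (set 10 without Longan low replicate 3, and vehicle) with filterByExpr, TMM and robust quasi-likelihood F tests. A gene was called when its p, adjusted after Benjamini and Hochberg, was below 0.05, and SE is the log2 fold change over the square root of F. CPM are TMM-scaled. The fit was run on simulated counts in which 200 genes were changed in Longan high. It recovered 28.57% of the 1.25-fold, 67.14% of the 1.5-fold and 77.36% of the 2-fold changes, with 5 false calls. The groups were otherwise alike in mean, with no trend with GC content and no library sets, unlike the real data. Named genes were the 15 with the largest change in each direction among those called with and without Longan high replicate 1, without overlap and at 2 CPM or more, plus up to 4 called members per list. Some genes the rule names are not reported here. Members and lists were chosen with earlier results of these data known. All pairs of replicates differed by more than sampling noise (chi-square at least 1.863 per degree of freedom). Transcript GC content was that of the median-length GENCODE 29 transcript, known for 17061 of 17188 genes. Alternatives were DESeq2 1.42.0, RLE factors, no filter, other sets of libraries, a replicate block, left-out libraries and a GC offset added after seeing the data.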

Additional observations from a re-analysis of the deposited data

Results flagged for a closer look

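For 13 of the 42 named genes the change from the low to the high dose differed between the extracts by the test of the difference itself (adjusted p below 0.05, edgeR), given here as the Longan change minus the Zizyphi change on the log2 scale. It was negative in YIPF2 (-0.55), FA2H (-0.50), KRT19 (-0.50), CDH4 (-0.45), NFKB2 (-0.45), KRT4 (-0.39), TNS1 (-0.35) and CALR (-0.23). It was positive in PDK4 (0.70), PLA2G4A (0.46), MMD (0.42), CPLX2 (0.26) and GCLC (0.20). These tests use the same high-dose libraries that chose the genes.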

How the results depend on the processing

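Of the 42 named genes, none changed direction under any alternative, and 26 were called in all 6 fits that left out 1 high-dose library. Part of this was set by the choice of genes. All 42 were called in the main fit, which shares libraries with every alternative. The genes named by size of change also had to be called without Longan high replicate 1. The 86 genes called at the high dose became 130 by DESeq2, 332 with no filter on low counts, 27 with only the groups in the contrast, 131 with all 52 replicated libraries, 1 with Longan low replicate 3 included, 147 without the Longan replicate 1 libraries of 3 doses, and 45 to 81 when 1 library was left out. At the low dose the 0 calls became 61 with no filter and 5 with only its groups, and stayed at 0 in the fits that left out 1 library. The 18 genes of the difference between dose effects became 32 by DESeq2, 175 with no filter, 4 with only its groups, 0 with Longan low replicate 3, and 0 to 22 with 1 library left out. The 4 genes of the Longan dose effect became 58 by DESeq2, 381 with no filter, 0 with only its groups, 16 with 52 libraries, 0 with Longan low replicate 3, 10 without the replicate 1 libraries, and 0 to 5 with 1 library left out. The 134 genes of the Zizyphi dose effect became 356 with no filter, 316 with only its groups, 210 with 52 libraries, 2 with Longan low replicate 3, 235 without the replicate 1 libraries, and 61 to 70 with 1 library left out. With no filter, more genes of few counts were tested; beyond that the cause was not tested. With the replicate number as a block the calls were 116 at the high dose, 0 at the low dose, 28 for the difference between dose effects, 13 for Longan and 176 for Zizyphi. Same-numbered Longan and Zizyphi libraries at the high dose had correlations of -0.015, -0.034 and -0.177, and differently numbered ones -0.114 to 0.165. Same-numbered libraries of Zizyphi high and low had -0.004, 0.148 and 0.137. Those of Longan high and low had 0.187 and 0.143, and those of the 2 low-dose groups 0.215 and 0.089. What the numbers stand for was not tested. Among the named genes the calls lost were 41 of 42 with Longan low replicate 3 included, 23 with only the groups in the contrast and 8 with the GC offset. DESeq2 gave no adjusted p for 4 of them. Of all 17188 genes it gave none for 8331 at the high dose, 14662 for the difference between dose effects and 12330 for Longan. Its counts therefore rest on fewer genes than those of edgeR.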
